A study of Mus musculus with 6 samples.

Results

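The genes described here are 9 components of the DNA damage response: the damage-sensing kinases Atm and Atr, the checkpoint kinases Chek1 and Chek2, the break sensors and mediators Mre11a, H2afx and Trp53bp1, and the homologous recombination genes Brca1 and Brca2. They were taken by name from the 34745 genes of the deposited table, and all 9 were found, each in 1 row. The cells were cultured spermatogonial stem cells of the mouse, the germ cells from which sperm production is renewed, derived from the cross DBA/2J X c57BL/6J at postnatal day 6 and kept in culture for 15 to 20 passages. Of the 6 RNA sequencing libraries, 3 came from untreated cultures and 3 from cultures given 100 µM bisphenol A (BPA, a plastics monomer) for about 4 days. The titles of the untreated samples name no vehicle, so a solvent and BPA cannot be told apart. The labels do not say whether the replicates were separate cultures, and p-values then measure only the spread between these samples.

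A double-strand break is bound by the complex of MRE11, RAD50 and NBN, which activates the kinase ATM. ATM marks the chromatin around the break by phosphorylating the histone variant H2AX and activates the kinase CHK2. Single-stranded DNA, at resected breaks or stalled replication forks, is coated by replication protein A and activates ATR, whose main target is CHK1. 53BP1 favours direct joining of the ends, while BRCA1 favours their resection, and BRCA2 acts later in homologous recombination. Much of this regulation acts on proteins, by phosphorylation and ubiquitin, and is not seen in transcript levels.

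Library totals lay between 13453280 and 22286517 counts. Of 13287 genes tested across the table, 1415 passed a false discovery rate of 0.05 in edgeR (10.6%), 580 of them higher under BPA (4.37%) and 835 lower (6.28%). BPA replicate 2 stood apart: 2807 genes passed without it, against 444 to 833 when one of the other 5 libraries was left out. Among the 9 genes, BPA replicate 2 was the lowest BPA library for 8, the exception being H2afx. Markers of spermatogonia summed to between 3150 and 3300 counts-per-million (CPM) in the untreated libraries and between 2700 and 3000 under BPA. All sums of marker lists were scaled by library totals alone, while other CPM were, unless stated, scaled with edgeR's factors. With 0 of 16 markers uncounted, 1 of them passed as higher and 4 as lower. Without any one untreated library these counts were 0 and 1 (Uchl1), without BPA replicate 1 they were 0 and 2, without BPA replicate 2 they were 3 and 5, and without BPA replicate 3 they were 1 and 2. Fibroblast markers summed to between 473 and 499 CPM and between 368 and 625 CPM, with all 12 markers counted, and of the 10 tested 0 passed in edgeR (0 higher and 2 lower at an unadjusted p under 0.05, 1 lower in DESeq2). Sertoli cell markers summed to between 14.3 and 18.3 CPM untreated and between 33.3 and 47.1 CPM under BPA, and of these 10 markers Rhox5 and Fshr were at 0 counts in all 6 libraries. Of the 5 Sertoli markers tested 1 rose, Sox9 (1.5 on the log2 scale, edgeR adjusted p = 0.0104), a gene named after its values were seen, and 0 rose with untreated replicate 1 left out (Sox9, edgeR adjusted p = 0.0594). The part that these other cell types have in the results was not tested.

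Under BPA, 2 of the 9 genes passed the test in edgeR. Chek1 transcript rose 6.37-fold from a very low level, and H2afx transcript fell to 0.477 of its untreated level. The call of Chek1 was kept in 1 of the 6 fits that left out a single library, and was lost in limma-voom (adjusted p = 0.0982). That of H2afx was kept in all 6 and in limma-voom (adjusted p = 0.00223). The other 7 genes, among them Atm, Atr, Chek2, Brca1 and Brca2, did not pass the test. In bulk RNA, fewer cells of a type and less RNA per cell cannot be told apart. All 9 passed the filter on low counts. The 1 member higher and 1 lower stand beside the 4.37% and 6.28% of all tested genes called in those directions. Untreated and BPA libraries were fully separated for 2 of the 9 genes, beside 31.3% of the tested genes. The fold change was above 0 for 7 of 9 genes, and its median on the log2 scale was 0.36, against 0.10 for all tested genes. With every library corrected for GC content and gene length together, the fold change was above 0 for 4 of 9 and its median was -0.08, against -0.02 for all tested genes, while Chek1 and H2afx kept their calls.

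**Figure D1:**
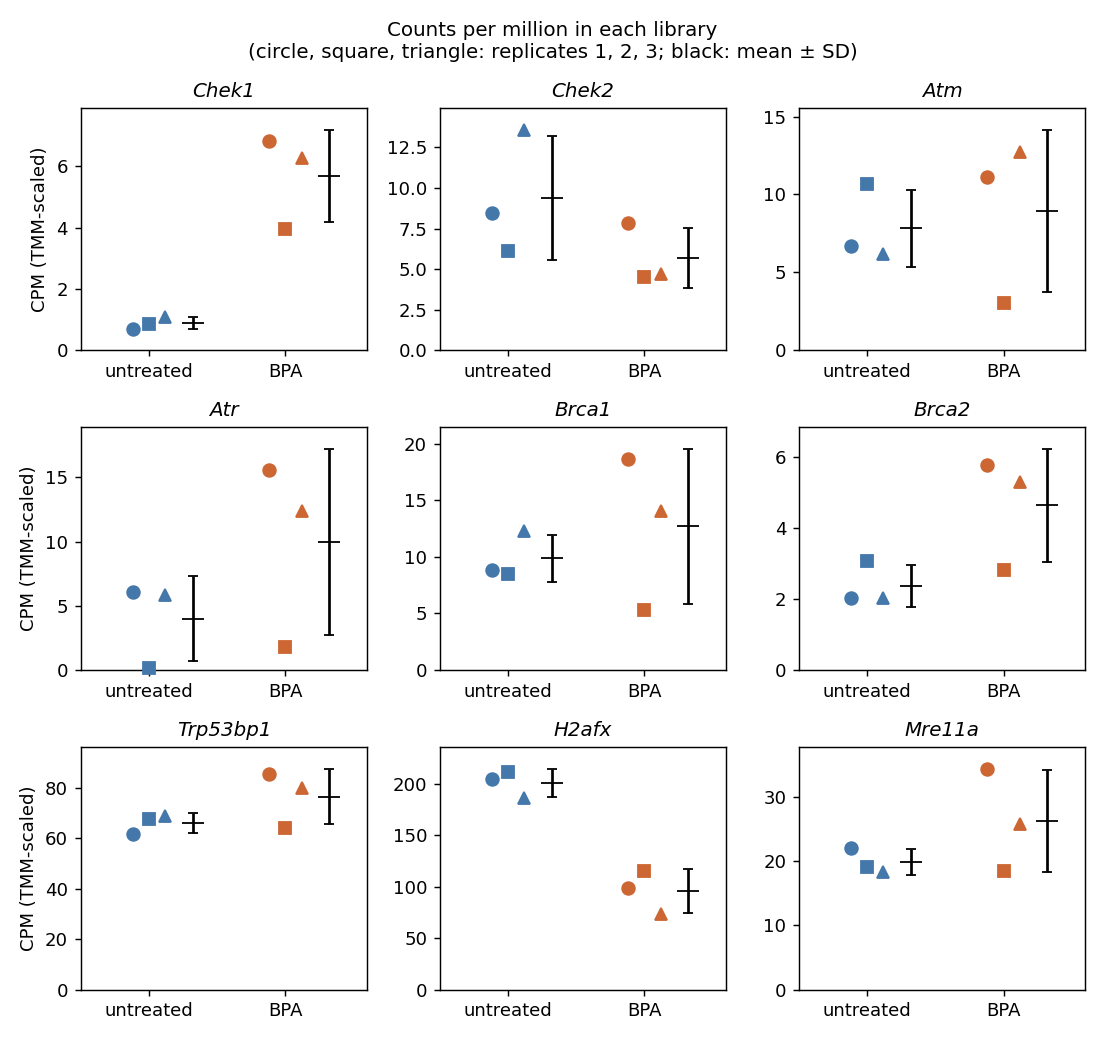
CPM of each gene on the vertical axis, untreated and BPA on the horizontal axis. Points are single libraries, with circles, squares and triangles for replicates 1, 2 and 3, and black bars are mean ± SD. For Chek1 and H2afx the groups do not overlap, and for every gene but H2afx the BPA square lies below the other BPA libraries.

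Levels were first compared between the genes as CPM per kilobase of merged exon, scaled by the library totals alone. H2afx was the most abundant of the 9 in both groups, at 140 ± 6.11 (SD, n = 3) untreated. Trp53bp1 followed at 4.5 ± 0.344 and Mre11a at 3.21 ± 0.282. Chek2 was at 3.03 ± 1.31, and its libraries overlapped those of Mre11a. Brca1 was at 1.12 ± 0.267 and Atm at 0.728 ± 0.216, again with overlapping libraries. The least abundant were Chek1 at 0.185 ± 0.0441, Brca2 at 0.167 ± 0.0393 and Atr at 0.165 ± 0.137, which did not differ beyond their spread. Of the 2 checkpoint kinases Chek2 had the more abundant transcript in the untreated cultures. In the BPA cultures Chek1 was at 1.29 ± 0.423 and Chek2 at 1.99 ± 0.731, and Chek1 ranked 6th in place of 7th.

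**Figure D2:**
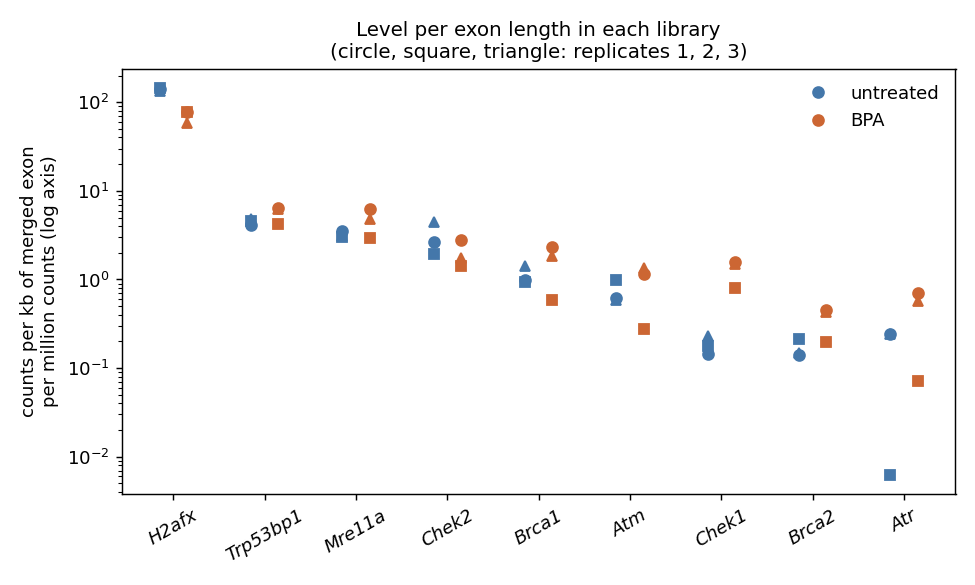
Level of each gene as CPM per kilobase of merged exon, scaled by library totals (log axis), with the genes ordered by their untreated mean. Each point is 1 library. H2afx lies above 50 in every library and Chek1, Brca2 and Atr below 0.3 in the untreated ones.

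These levels depend on the gene length used. The lengths implied by the deposited FPKM values (fragments per kilobase and library total) were within 1% of the sum of all distinct annotated exons for 72.6% of 18754 genes, so a base in 2 overlapping exons counts more than once. For Brca2 that length was 1.6 times the merged exons, for Chek2 1.49 times and for Chek1 1.46 times, while it was equal for the single-exon gene H2afx. The deposited FPKM of Brca2 was accordingly 0.105 ± 0.0246 untreated, below the 0.167 per kilobase of merged exon. The low place of Atr rests on merged exons of 23629 bases, against 4635 for Chek1. The deposited position of Atr was not identical to that in GENCODE vM21, the source of the exons. Before division by length, Atr was at 6.08, 0.157 and 5.81 CPM untreated and Chek1 at 0.712, 0.863 and 1.09 CPM (scaled with edgeR's factors). Comparing 1 gene between libraries does not use this length, except in the length corrections.

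Chek1 encodes the kinase that restrains the cell cycle and stabilises forks when replication is disturbed (ENSMUSG00000032113, chromosome 9, 36708482 to 36727065, minus strand, mm10). It had 13, 11 and 15 counts in untreated replicates 1 to 3 and 104, 80 and 154 counts in BPA replicates 1 to 3. In CPM these were 0.712, 0.863 and 1.09 against 6.81, 3.96 and 6.28. Every BPA library was above every untreated one, and the lowest BPA library had over 3 times the level of the highest untreated library. The log2 fold change was 2.67 (SE 0.71, 95% interval 1.12 to 4.22, edgeR adjusted p = 0.0329). The call was kept without BPA replicate 2 (edgeR adjusted p = 0.0261) and lost without each of the other 5 libraries, where the edgeR adjusted p was between 0.0557 and 0.15, with the log2 fold change between 2.53 and 2.90 over all 6 of these fits. In limma-voom the log2 fold change was 2.63 and the call was lost (adjusted p = 0.0982).

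Chek2 encodes the kinase downstream of ATM, which acts on p53 and on CDC25 phosphatases (chromosome 5, 110839979 to 110874145). It was at 8.44, 6.12 and 13.6 CPM in the untreated libraries and at 7.86, 4.51 and 4.73 CPM under BPA. The groups overlapped, and untreated replicate 3 was the highest of the 6. Chek2 did not pass the test, at a log2 fold change of -0.72 (SE 0.47, 95% interval -1.75 to 0.30, edgeR adjusted p = 0.375). It was at -0.31 without untreated replicate 3 and at -1.01 without BPA replicate 1 (edgeR adjusted p = 0.367). Within each library the ratio of Chek1 to Chek2 counts, which does not depend on scaling, was 0.0844, 0.141 and 0.0802 untreated and 0.867, 0.879 and 1.33 under BPA. This ratio was chosen after the values were seen and is given without a test.

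The promoters of both checkpoint kinase genes are shown because both held a core of the motif bound by E2F factors, which drive genes of the S phase. The sequences are from RefSeq (GRCm38.p6, the build also called mm10) and run from 250 bases before to 50 after the RefSeq transcript start, with the motif in capitals. The windows are chr9:36726609-36726908 on the minus strand and chr5:110839733-110840032 on the plus strand, and that of Chek1 lies inside the deposited gene, which reaches 36727065.
Chek1: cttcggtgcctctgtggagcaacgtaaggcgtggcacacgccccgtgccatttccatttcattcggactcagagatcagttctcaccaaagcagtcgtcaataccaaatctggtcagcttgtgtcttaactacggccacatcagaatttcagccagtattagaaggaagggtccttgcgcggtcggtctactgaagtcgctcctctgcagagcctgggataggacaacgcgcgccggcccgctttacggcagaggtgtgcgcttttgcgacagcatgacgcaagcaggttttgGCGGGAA
Chek2: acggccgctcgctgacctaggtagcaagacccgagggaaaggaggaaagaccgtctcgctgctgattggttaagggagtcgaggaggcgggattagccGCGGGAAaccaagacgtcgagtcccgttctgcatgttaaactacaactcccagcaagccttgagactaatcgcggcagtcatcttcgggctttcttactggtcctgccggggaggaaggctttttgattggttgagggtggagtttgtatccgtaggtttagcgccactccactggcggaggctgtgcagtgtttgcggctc

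The E2F core was searched as TTCCCGC or as TTGGCGC or as TTGCCGC or as TTCGCGC on both strands, and these letters can overlap one another. It began at 43 relative to the transcript start in Chek1 and at -152 in Chek2. Of the 9 genes, 8 matched a promoter in the RefSeq table, and 5 of those held the core (Chek1, Chek2, Atm, Brca1 and Brca2), while 9.57% of all 32851 promoters did. The cell cycle element TTTGAA, present in 17.9% of promoters, and the amino acid response element TGATGNAA, present in 3.97%, were found in 0 of the 8. The cyclic AMP element TGACGTCA was found in 1 of the 8, Brca2, and in 1.79% of promoters. The motifs were searched on both strands and chosen with the sequences in view, and a match is not evidence of binding. The genes with the core included 1 that passed the test and 4 that did not.

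Atm, which encodes the kinase activated by double-strand breaks (chromosome 9, 53439149 to 53536740), was at 6.68, 10.7 and 6.17 CPM untreated and at 11.1, 3.02 and 12.7 CPM under BPA. The BPA libraries lay on both sides of the untreated ones, with BPA replicate 2 the lowest of all 6. The log2 fold change was 0.19 (SE 0.53, 95% interval -0.96 to 1.35, edgeR adjusted p = 0.865). It was below 0 without BPA replicate 3 (-0.15) and after a correction for gene length (-0.09), and 0.61 without BPA replicate 2 (edgeR adjusted p = 0.363). The estimate for Chek1, 2.67, lies above the 95% interval of Atm, but the 95% interval of Chek1 (1.12 to 4.22) overlaps it. A difference between these kinase genes in their response was not tested.

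Atr, which encodes the kinase activated by single-stranded DNA (chromosome 9, 95857597 to 95951644), had 111, 2 and 80 counts in the untreated libraries and 239, 36 and 304 under BPA. The 2 counts of untreated replicate 2 (exact Poisson 95% interval 0.242 to 7.22, covering counting error only) stand against 77.7 counts at the share of the other 2 untreated libraries. In CPM the gene was at 6.08, 0.157 and 5.81 untreated and at 15.6, 1.78 and 12.4 under BPA. Replicate 2 was the lowest library of both groups. The log2 fold change was 1.30 (SE 0.93, 95% interval -0.73 to 3.32, edgeR adjusted p = 0.423). It was 0.74 without untreated replicate 2, 1.79 without BPA replicate 2 (edgeR adjusted p = 0.164) and 0.56 after the correction for GC content and gene length. With the replicate number as a block in the fit, the log2 fold change was 1.69 (SE 0.56, edgeR adjusted p = 0.0732), still not past the threshold. The labels do not say that same-numbered samples were paired. In the fit without this block, a doubling of Atr could not be told from no change at this depth and spread.

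H2afx encodes the histone variant that becomes gamma-H2AX at breaks (ENSMUSG00000049932, chromosome 9, 44334694 to 44336077, plus strand). It is a single-exon gene of 1384 bases. It was at 205, 212 and 186 CPM in the untreated libraries and at 98.9, 115 and 73.6 CPM under BPA, from 1511 to 3748 counts per library. All BPA libraries were below all untreated ones. The log2 fold change was -1.07 (SE 0.19, 95% interval -1.47 to -0.67, edgeR adjusted p = 0.00385), and H2afx stayed past the threshold without each library in turn (edgeR adjusted p 0.000195 to 0.0368). How reads matching several H2A genes were counted is not given in the sources used here, and 10.2% of the exon overlaps an annotated microRNA gene on the other strand.

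Other H2A variants, chosen after their values were seen, did not pass the test in edgeR. H2afz measured 172 ± 19.1 and 174 ± 52.4 CPM, a log2 difference of 0.01 (SE 0.21, edgeR adjusted p = 0.986), and H2afv measured 202 ± 8.65 and 171 ± 8.14 CPM (-0.24, SE 0.14, edgeR adjusted p = 0.335). H2afj was at 22.3 ± 9.17 and 10.1 ± 3.57 CPM (-1.15, SE 0.39, edgeR adjusted p = 0.0824). The ratio of H2afx to H2afz counts was 1.06, 1.26 and 1.19 untreated and 0.43, 0.91 and 0.448 under BPA, without overlap between the groups. A difference between H2afx and these variants in their response was not tested.

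Like H2afx, the proliferation markers that passed the test were lower. Of 27 such genes 9 fell and 0 rose in edgeR, beside 6.28% of all tested genes called lower, with 17 lower and 1 higher at an unadjusted p under 0.05 and a median log2 fold change of -0.79. In DESeq2 15 were lower, in limma-voom 11, and 17 after the correction for GC content and gene length, settings in which 2166 (DESeq2), 1427 (limma-voom) and 2136 (the correction) of all genes passed, against 1415. The following genes were picked for their role after the values were seen. Aurka, a mitotic kinase gene, fell by 1.56 on the log2 scale (edgeR adjusted p = 0.000146). The S-phase regulator E2f1 fell from 284 ± 40.1 to 148 ± 26.9 CPM and no longer passed with untreated replicate 2 left out (edgeR adjusted p = 0.0537). The 6 replication licensing genes of the list, Mcm2 to Mcm7, did not pass in edgeR and lay between -0.38 (Mcm7) and 0.81 (Mcm4) on the log2 scale. Mcm7 passed as lower in DESeq2, Mcm5 and Mcm7 did after the correction for GC content and gene length, and Mcm2 passed as higher with scaling by totals alone. Without BPA replicate 2, Mcm4 passed as higher and Mcm5 and Mcm7 as lower. The part of proliferation in the H2afx result was not tested. The summed level of the list, scaled by library totals alone, was between 5650 and 6090 CPM untreated and between 4800 and 5140 CPM under BPA.

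Mre11a encodes the nuclease of the break-sensing complex (chromosome 9, 14784654 to 14837123). It was at 22.0, 19.0 and 18.3 CPM untreated and at 34.3, 18.5 and 25.7 CPM under BPA, and 2 of 3 BPA libraries were above every untreated one. The log2 fold change was 0.40 (SE 0.30, 95% interval -0.24 to 1.05, edgeR adjusted p = 0.436). It was 0.17 without BPA replicate 1, 0.60 without BPA replicate 2 (edgeR adjusted p = 0.137) and 0.06 after the correction for GC content and gene length. Trp53bp1, the gene of 53BP1 (chromosome 2, 121193281 to 121271407), had counts between 864 and 1960 in every library. It was at 61.7, 67.8 and 68.9 CPM untreated and at 85.5, 64.3 and 79.9 CPM under BPA. Its log2 fold change was 0.21 (SE 0.19, 95% interval -0.20 to 0.62, edgeR adjusted p = 0.534), an interval that leaves out a doubling. The log2 fold change was 0.32 without BPA replicate 2 (edgeR adjusted p = 0.163) and -0.16 after a correction for gene length. Trp53bp1 shares 15.0% of its merged exons with Tubgcp4 on the other strand, and reads there cannot be assigned without strand information.

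Brca1 encodes a ubiquitin ligase that promotes end resection (chromosome 11, 101488764 to 101551955). It was at 8.88, 8.48 and 12.3 CPM untreated and at 18.7, 5.30 and 14.1 CPM under BPA. BPA replicates 1 and 3 were above all untreated libraries and BPA replicate 2 below them. The log2 fold change was 0.36 (SE 0.46, 95% interval -0.63 to 1.36, edgeR adjusted p = 0.674). It was -0.01 without BPA replicate 1, 0.74 without BPA replicate 2 (edgeR adjusted p = 0.185) and -0.08 after the correction for GC content and gene length. Brca2, a gene of homologous recombination (chromosome 5, 150522630 to 150570329), had 37, 39 and 28 counts untreated and 88, 57 and 130 under BPA. In CPM these were 2.03, 3.06 and 2.03 against 5.76, 2.82 and 5.30, so BPA replicate 2 fell within the untreated range. Its log2 fold change was 0.96 (SE 0.66, 95% interval -0.48 to 2.40, edgeR adjusted p = 0.402). It was 1.22 without BPA replicate 2 (edgeR adjusted p = 0.272) and 0.31 after the correction for GC content and gene length.

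**Figure D3:**
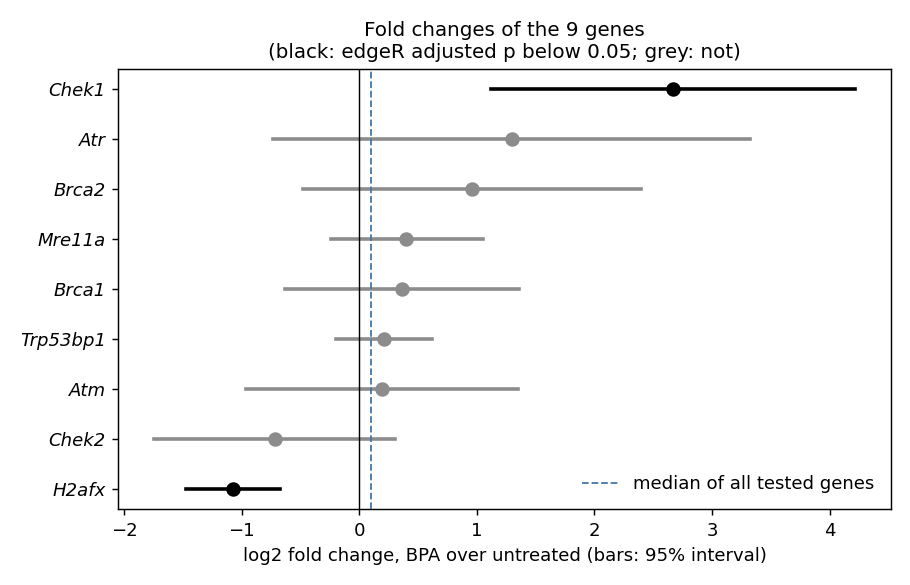
Log2 fold change of BPA over untreated (horizontal axis) for each gene, with its 95% interval as a bar. Black marks an edgeR adjusted p below 0.05 and the dashed line is the median of all tested genes, 0.10. The bars of Chek1 and H2afx leave out 0, on opposite sides, and those of the other 7 genes include it.

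The longest transcripts of the 9 genes, except H2afx at 62.3%, had a GC content of 40.8% to 48.0%, below the median of 50.5% for tested genes. Of the 9 genes, 5 lie on chromosome 9 (Chek1, H2afx, Atm, Atr and Mre11a), and these included both genes that passed the test. The share of all genes called on that chromosome was not worked out, so no pattern by chromosome is read from this. The correction for GC content and gene length lowered the log2 fold change of Atr, Brca2, Mre11a, Brca1, Trp53bp1, Atm, Chek1 and Chek2 (from -0.72 to -0.96, edgeR adjusted p = 0.159), and moved that of H2afx from -1.07 to -0.78. Chek1 was then at 2.29 (edgeR adjusted p = 0.0323) and H2afx at an edgeR adjusted p of 0.0013. Scaling by library size alone moved the median of all tested genes from 0.10 to 0.21 and changed neither call.

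**Figure D4:**
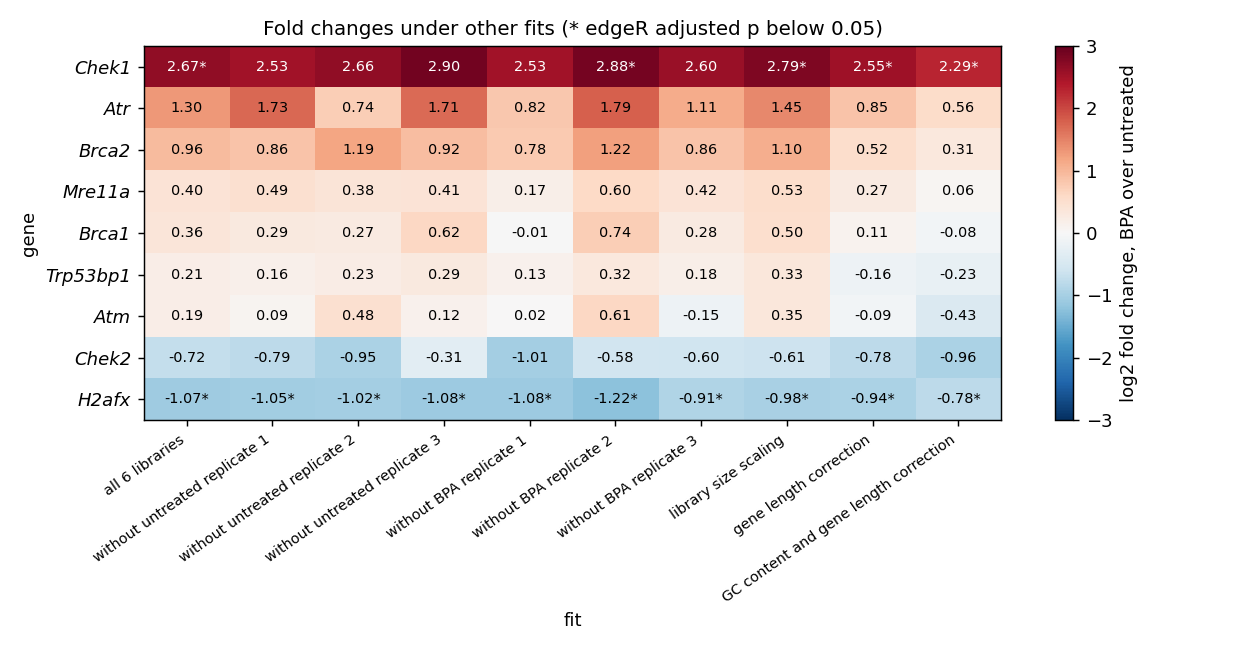
Log2 fold change of each gene (rows, colour and printed value) with all 6 libraries, without each library in turn, and under other scalings and corrections (columns). An asterisk marks an edgeR adjusted p below 0.05. H2afx carries it in all 10 columns and Chek1 in 5, and Atm, Brca1 and Trp53bp1 change sign between columns.

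The genes whose pattern over the 6 libraries was most like that of Chek1, by Pearson's r of log2 CPM, were Phka2 (0.999), Chd8 (0.998) and Gyg (0.996). Chd8, a chromatin remodeller gene, rose by 1.70 (SE 0.30, edgeR adjusted p = 0.00409) and Gyg, which encodes glycogenin, by 1.62 (SE 0.38, edgeR adjusted p = 0.0185). Phka2, a subunit gene of phosphorylase kinase, was at 0.77 (SE 0.24, edgeR adjusted p = 0.0592). For H2afx they were Tbcb (0.998), Myeov2 (0.997) and Ube2s (0.997), which fell by 0.85, 1.51 and 0.73 on the log2 scale. Ube2s encodes a ubiquitin-conjugating enzyme that works with the anaphase-promoting complex. The r values share the same 6 libraries and are a description.

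Partners of these genes were read from 6 lists. Of all tested genes, 4.37% were called higher and 6.28% lower in edgeR. On the ATM side, 0 of 16 genes passed in edgeR, and 2 higher and 0 lower had an unadjusted p under 0.05. DESeq2 and limma-voom also called 0. The list's median log2 fold change was 0.34 against 0.10 for all tested genes. It was 0.17 after the length correction, against 0.00 for all tested genes, and 0.08 after that for GC content and gene length, against -0.02. The most abundant members were Uimc1 (RAP80, which reads ubiquitin at breaks) at 366 ± 56.2 and 494 ± 98.5 CPM, and Babam1 of the same BRCA1-A complex at 249 ± 2.89 and 199 ± 38.3 CPM. When libraries were scaled by their totals alone, Uimc1 passed (edgeR adjusted p = 0.0251), and Kat5 did after the correction for GC content and gene length. Without BPA replicate 2 Babam1 passed as lower and Rif1, a 53BP1 effector chosen after its values were seen, as higher. The partners of Mre11a in its complex, also chosen afterwards, did not pass: Rad50 was at 0.63 (SE 0.47) and Nbn at 0.01 (SE 0.71) on the log2 scale.

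On the ATR side, 1 of 13 tested genes fell and 0 rose in edgeR, beside 6.28% and 4.37% of all tested genes. At an unadjusted p under 0.05, 3 were higher and 2 lower. The median was 0.37 against 0.10 for all tested genes, or 0.19 against -0.02 after the correction for GC content and gene length. Atrip, the partner of ATR, had too few counts to be tested. Rpa2, a subunit of replication protein A, was at 483 ± 25.4 and 293 ± 19.7 CPM, and fell by 0.72 on the log2 scale (SE 0.14, edgeR adjusted p = 0.00607). It passed without each library in turn (edgeR adjusted p up to 0.0486). DESeq2 also called Topbp1, the activator of ATR, and Rad9a of the clamp at damaged DNA as higher, and limma-voom called 0 higher. In edgeR Topbp1 was at 13.6 ± 4.95 and 31.6 ± 19.5 CPM (adjusted p = 0.117) and Rad9a at 89.6 ± 11.2 and 134 ± 32.6 CPM (adjusted p = 0.0926), both chosen after their values were seen. Without BPA replicate 2, 2 were higher (Topbp1 and Etaa1) and 2 lower (Rpa2 and Rpa1).

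Genes listed as targets of the checkpoint kinases, direct or further downstream, went both ways. Of 13, 3 were higher and 2 lower, beside 4.37% and 6.28% of all tested genes. The list's median was 0.01, against 0.10 for all tested genes. Cdc25b, a phosphatase that activates mitotic cyclin-dependent kinase, fell by 1.25 on the log2 scale (SE 0.19, edgeR adjusted p = 0.00167), with means of 161 ± 17.3 and 67.6 ± 13.3 CPM, also without each library in turn. Cdk1, the mitotic kinase itself, fell by 0.85 on the log2 scale, a call lost with scaling by totals alone (edgeR adjusted p = 0.0792). Mdm2, which encodes the ligase that degrades p53, rose from 11.9 ± 5.72 to 45.4 ± 16.4 CPM. It no longer passed once untreated replicate 1 was left out (edgeR adjusted p = 0.069). Tlk2, a chromatin assembly kinase that CHK1 acts on, rose by 1.61 and Cdk2 by 0.67. The calls of Cdk1, Tlk2 and Cdk2 were each lost without 4 or 5 of the single libraries (edgeR adjusted p up to 0.16, 0.0855 and 0.195). DESeq2 called Mdm4, a partner of MDM2, as a further gene that was higher. Leaving out untreated replicate 1 gave 0 higher, and leaving out BPA replicate 2 gave 4. Leaving out untreated replicate 2 or BPA replicate 1 gave 2 higher, and untreated replicate 3 or BPA replicate 3 gave 1. The number lower was 2 with BPA replicate 2 left out and 1 with each other library left out. Trp53 itself, picked with its values in view, measured 326 ± 3.78 CPM untreated and 328 ± 68.7 CPM under BPA.

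Of 25 further homologous recombination genes, 1 fell and 0 rose in edgeR, beside 6.28% and 4.37% of all tested genes. At an unadjusted p under 0.05, 2 were higher and 1 lower. DESeq2 and limma-voom also gave 0 higher and 1 lower, and the median was 0.14, against 0.10 for all tested genes. Shfm1, which encodes the BRCA2 partner DSS1, fell by 1.24 on the log2 scale (SE 0.34, edgeR adjusted p = 0.0354), with means of 18.9 ± 3.75 and 8.0 ± 0.982 CPM. Its call held with BPA replicate 2 left out and was lost with each other library left out (edgeR adjusted p up to 0.134). The BRCA1 partner Bard1 was at 25.3 ± 1.82 and 23.1 ± 2.08 CPM. Palb2, which bridges BRCA1 and BRCA2, was at 17.4 ± 4.31 and 19.5 ± 8.82 CPM, and neither gene, both chosen after their values were seen, passed the test. Rad54l and Swi5 were among the genes that also passed as lower after the correction for GC content and gene length.

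In the competing pathway of non-homologous end joining, 0 of 8 tested genes passed in edgeR, DESeq2 or limma-voom. At an unadjusted p under 0.05 in edgeR, 1 was higher and 1 lower, with a median of 0.00 against 0.10 for all tested genes. Lig4 and Xrcc4 had too few counts to be tested. Xrcc6, which encodes Ku70, was at 88.7 ± 7.78 and 91.7 ± 13.5 CPM, and the polymerase gene Poll at 40.4 ± 2.86 and 59.9 ± 13.6 CPM. Poll passed after the correction for GC content and gene length (edgeR adjusted p = 0.0126). Of 14 Fanconi anaemia genes, which repair crosslinks together with BRCA1 and BRCA2, 1 fell and 0 rose in edgeR (0 higher and 3 lower at an unadjusted p under 0.05). All tested genes stood at 6.28% lower and 4.37% higher. The list's median was -0.12, against 0.10 for all tested genes. The gene called lower was Faap100, at 72.1 ± 20.3 and 36.3 ± 10.2 CPM, which fell by 0.99 on the log2 scale (SE 0.27, edgeR adjusted p = 0.0372). Leaving out any one of untreated replicates 1 and 2 and BPA replicates 1 and 3 ended this call (edgeR adjusted p up to 0.173). The number lower was 3 in DESeq2 and without BPA replicate 2, 2 in limma-voom and 4 after the correction for GC content and gene length.

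**Figure D5:**
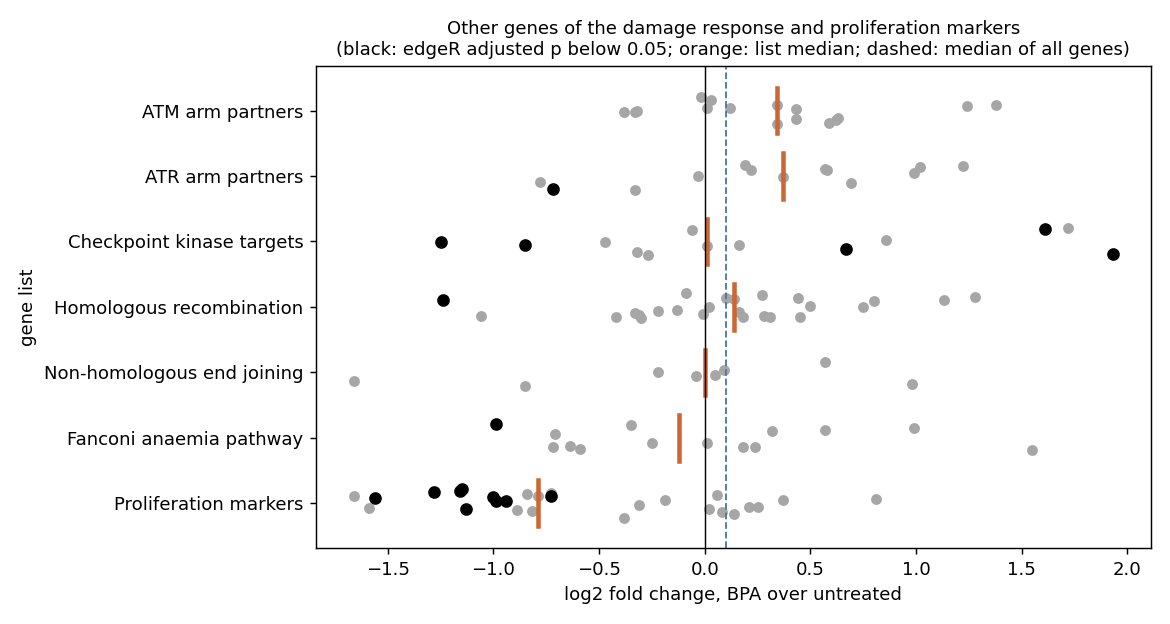
Log2 fold change of BPA over untreated for every tested gene of the 6 lists and of the proliferation markers. Black points passed an edgeR adjusted p of 0.05, orange bars are list medians and the dashed line is the median of all tested genes. The repair lists centre between -0.12 and 0.37 with few black points, and the proliferation markers at -0.79 with 9.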

How the data were processed

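The deposited table, made by the authors, gives raw counts and FPKM for 34745 genes in 6 libraries. Per the submitters' processing notes, the tools included TopHat2 2.0.9 and HTSeq, and the build was mm10. No source used here gives the annotation release or the strand setting. The TruSeq v2 kit named in the labels' protocols does not mark strand. The deposited FPKM values served to recover gene lengths and, for Brca2, to show how the length used changes the level. Exons, overlaps and GC content were taken from GENCODE vM21, where 98.6% of identifiers were found.

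BPA was compared with untreated over all genes by the quasi-likelihood test of edgeR 4.0.16 in R 4.3.3, after filterByExpr and TMM scaling (no block, Benjamini-Hochberg, threshold 0.05, two-sided). The SE is the log2 fold change over the square root of F. Alternatives were DESeq2 1.42.0, limma-voom (limma 3.58.1), other scalings and filters, an FDR of 0.01, a replicate block, a lowess correction (span 0.3) for gene length, and leaving out each library. The correction for GC content and gene length was added after seeing the data.

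The 9 genes and the 10 lists (157 entries) were chosen with earlier results of these data known. Named from each list except markers were up to 5 genes past the threshold, or the 2 most abundant. For each of the 9 genes that passed, the 3 genes of highest Pearson's r were named (log2 of CPM plus 0.5, mean of at least 1 CPM, predicted genes and pseudogenes left out). Some list genes are not reported here by name.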

Additional observations from a re-analysis of the deposited data

How the results depend on the processing

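The number of genes past the threshold was 1415, and 2166 in DESeq2, 2136 after the correction for GC content and gene length, 477 at an FDR of 0.01, and 444 to 2807 without single libraries. With the replicate block it was 1706. The deviations of same-numbered samples from their group means had correlations of -0.02, 0.06 and 0.07. BPA replicate 1 deviated most like untreated replicate 3 (0.03). With 3 samples per group these values cannot settle whether same-numbered samples were paired, which the labels do not say. The number of the 9 genes that were higher, 1, was 0 in limma-voom, 0 with the replicate block (Chek1 at 2.65, edgeR adjusted p = 0.061), 0 at an FDR of 0.01, and 0 to 1 without single libraries. The number lower was 1 in every alternative run. Over all refits of the 9 genes, 130 kept direction and stayed called or not called as in the main fit. These 130 include refits of genes that were not called in the main fit. A further 7 lost the call (all Chek1) and 7 turned direction, none of them called. Atm was at -0.09 after the length correction, -0.43 after that for GC content and length, and -0.15 to 0.61 without single libraries. Brca1 was at -0.08 after the latter and -0.01 to 0.74 without single libraries, and Trp53bp1 at -0.16 and -0.23 after the 2 corrections. Xrcc6 was at -0.07 after the length correction and -0.02 to 0.17 without single libraries. The cause of these shifts was not tested. In the untreated libraries Chek1 had 11 to 15 counts, Brca2 28 to 39 and Atr 2 to 111, which limits their precision.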
